A study of Rhodotorula toruloides with 9 samples.

Results

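RTO4_13727 and RTO4_13731 are the 2 genes of Rhodosporidium toruloides that the supplementary gene summary of the study annotates as homologs of GAT-1, and they were picked by protein number from the 8578 gene models of the deposited tables. Both were above 0 in all 9 libraries, and both entered the tests. GAT-1 is the d-galacturonic acid (d-galUA) transporter of the filamentous ascomycete Neurospora crassa. It belongs to the major facilitator superfamily, a large family of membrane carriers that includes most sugar transporters of fungi. d-galUA is the main sugar acid of pectin, and in ascomycetes such a carrier brings it into the cell, where reductases, a dehydratase and an aldolase turn it into pyruvate and glycerol. What RTO4_13727 and RTO4_13731 transport was not measured here, and the annotation rests on sequence homology alone.

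The libraries are mRNA from whole cells of strain IFO0880, a red basidiomycete yeast, grown in yeast nitrogen base with d-galUA, glycerol or d-glucose (d-glc) as the carbon source. Every group has the same strain and genotype, and by the labels the groups differ in the carbon source only. The methods give no culture time for these libraries. Time in culture and growth rate on each carbon source therefore cannot be told apart from the carbon source itself. By the study's methods the cultures of all carbon sources were inoculated from 1 starter culture, so the p-values measure the spread between cultures that share it. The labels give the log phase as the time of sampling, and the methods give the onset of stationary phase. The labels count 3 d-galUA, 2 glycerol and 4 d-glc libraries. The library labelled d-glc replicate 4 was counted with glycerol, which gives 3 libraries per carbon source. The mean FPKM over it and both libraries labelled glycerol differed by at most 0.1% from the glycerol column of the supplementary summary for 1994 of 1995 genes, and the next best set of 3 libraries differed by a median of 9.79%. Its correlation across genes was at least 0.987 with the libraries labelled glycerol and at most 0.878 with the other libraries labelled d-glc. Tests of the homologs that rest on this library are also given without it and with the groups as labelled; means and shares on glycerol include it throughout. The mapped depth, computed from coverage and FPKM, was about 25800000 to 51900000 reads of 50 bp per library.

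Both GAT-1 homologs were most abundant on glycerol, not on d-galUA, and on d-galUA both were close to their level on d-glc. The mean FPKM of RTO4_13727 on d-galUA was 4.47-fold lower than on glycerol, and that of RTO4_13731 was 4.75-fold lower. FPKM is a level corrected for gene length and for the depth of the library, so the genes can be compared with each other. RTO4_13727 was the more abundant of the pair in each of the 9 libraries. In a culture, a higher level in every cell and a larger share of cells with the transcript cannot be told apart.

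The FPKM of RTO4_13727 was 103, 104 and 112 in cultures on d-galUA, 443, 539 and 441 in cultures on glycerol (the last is the library labelled d-glc replicate 4), and 73.9, 74.9 and 95.3 in cultures on d-glc. No carbon source overlapped another in these values, and the lowest glycerol library was 3.93-fold above the highest of the 6 other libraries. Of all genes tested, 17.1% had every glycerol library above every other library, as both homologs did. The means were 106 ± 5.13 on d-galUA, 474 ± 56.1 on glycerol and 81.4 ± 12.1 on d-glc (SD, n = 3 each). By its mean, the gene took place 1002 of 8578 models on d-galUA, 236 on glycerol and 1288 on d-glc.

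The FPKM of RTO4_13731 was 48.3, 51.1 and 52.8 in cultures on d-galUA, 234, 257 and 232 in cultures on glycerol in the same order, and 45.5, 44.5 and 58.1 in cultures on d-glc. The glycerol libraries stood apart, the lowest of them 3.99-fold above the highest of the other 6, while the d-galUA and d-glc libraries overlapped. The means were 50.7 ± 2.25 on d-galUA, 241 ± 14.2 on glycerol and 49.3 ± 7.55 on d-glc (SD, n = 3 each). Its places by the mean were 2006 on d-galUA, 477 on glycerol and 2114 on d-glc. The fewest reads behind any of these values were 1267 per kb of gene model, in d-glc replicate 2, which corresponds to a counting error of 2.81% per kb.

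**Figure D1:**
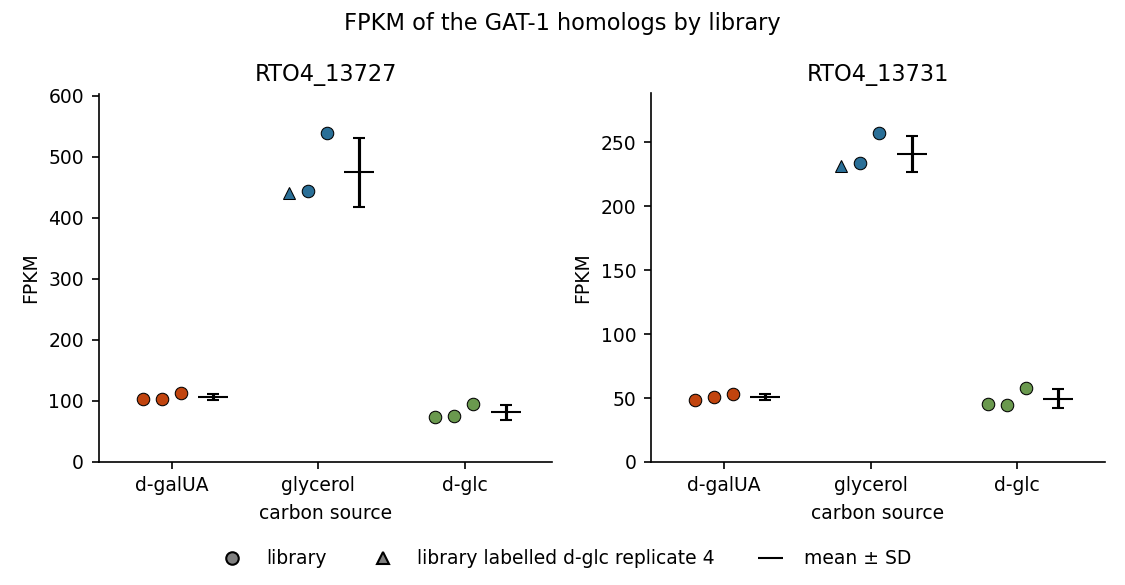
FPKM (vertical axes, from 0, with a scale of their own) of RTO4_13727 and RTO4_13731 in each library, by carbon source. Circles are libraries, the triangle is the library labelled d-glc replicate 4, and bars are the mean ± SD of 3 libraries. For RTO4_13727 the glycerol libraries lie between 441 and 539, above all others, and for RTO4_13731 between 232 and 257.

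The comparison of d-galUA with glycerol shows which genes differ between these carbon sources. By itself it cannot tell to which of them a gene responds. On log2(FPKM + 1), the fold change of RTO4_13727 on d-galUA against glycerol was -2.14 (SE 0.12, 95% interval -2.41 to -1.87, limma adjusted p = 3.10e-07). For RTO4_13731 it was -2.23 (SE 0.11, 95% interval -2.47 to -1.98, limma adjusted p = 1.18e-07). A call alone says little here, because limma called 24.1% of the 8479 genes tested as lower on d-galUA, and in 31.7% all d-galUA libraries lay below all glycerol libraries. The size of the difference was less common: 3.16% of genes were called and had a mean FPKM at least 4-fold lower on d-galUA, both homologs among them. Of the genes tested, 171 had a lower log2 fold change than RTO4_13727 and 156 a lower one than RTO4_13731. Without the library labelled d-glc replicate 4 the log2 fold changes were -2.19 and -2.25. With the groups as labelled the same d-galUA and glycerol libraries are compared, so the values, -2.19 and -2.25, are equal by construction. The adjusted p of limma was then 0.0583 for RTO4_13727 and 0.0403 for RTO4_13731. In that grouping the library at 441 and 232 counts as d-glc.

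On glycerol against d-glc, which uses the same glycerol libraries, RTO4_13727 was 5.83-fold higher by mean FPKM and RTO4_13731 was 4.89-fold higher. For RTO4_13727 this was a log2 fold change of 2.53 (SE 0.12, 95% interval 2.26 to 2.80), with a limma adjusted p of 7.28e-08. For RTO4_13731 it was 2.27 (SE 0.11, 95% interval 2.03 to 2.52), with a limma adjusted p of 8.03e-08. Here limma called 26.7% of genes as higher on glycerol, 28.1% had all glycerol libraries above all d-glc libraries, and 4.28% were called and at least 4-fold higher by mean FPKM. Without the library labelled d-glc replicate 4 the log2 fold changes were 2.58 and 2.30. With the groups as labelled they were 1.97 for RTO4_13727 and 1.75 for RTO4_13731, and the limma adjusted p was 0.172 for either gene, in a comparison that then called 1 gene in all by limma (2250 at an unadjusted p under 0.05).

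Between d-galUA and d-glc the homologs differed little. RTO4_13727 was 1.31-fold higher on d-galUA by mean FPKM, with a log2 fold change of 0.39 (SE 0.12, 95% interval 0.12 to 0.66, limma adjusted p = 0.0219). In this comparison limma called 24.9% of genes as higher and 25.8% as lower on d-galUA, and 29% had all d-galUA libraries above all d-glc libraries, as RTO4_13727 had. The call for RTO4_13727 was lost without d-galUA replicate 2 or 3 or d-glc replicate 1 or 2, with adjusted p of 0.0523, 0.0811, 0.0637 and 0.0618, and the adjusted p was 0.114 with Ballgown's test. For RTO4_13731 the same contrast gave 0.05 (SE 0.11, 95% interval -0.20 to 0.30), with a limma adjusted p of 0.746. The interval leaves room for a modest difference in either direction. With the groups as labelled the direction turned for both, to -0.22 for RTO4_13727 (limma adjusted p = 0.810) and -0.51 for RTO4_13731 (limma adjusted p = 0.521). On neither carbon source did these genes come near their glycerol level.

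The proportion between the homologs was steadier than their levels. The ratio of the FPKM of RTO4_13727 to that of RTO4_13731 was 2.13, 2.03 and 2.12 in the d-galUA libraries, 1.89, 2.09 and 1.90 in the glycerol libraries and 1.62, 1.68 and 1.64 in the d-glc libraries. The d-galUA and glycerol libraries overlapped, and every d-glc library lay below both. Across the 3 carbon sources the log2 ratio differed (exact permutation test of the F statistic, p = 0.00714, 1680 arrangements). The difference in mean log2 ratio was 0.34 for d-galUA minus d-glc, 0.25 for glycerol minus d-glc and 0.10 for d-galUA minus glycerol. In the exact two-sided permutation tests of these pairs p was 0.10, 0.10 and 0.20 (adjusted 0.15, 0.15 and 0.20), where 0.10 is the smallest p that 3 against 3 libraries allow. Over the leave-one-out fits the p of the F statistic was 0.00357 to 0.0107, and with the groups as labelled 0.0230.

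**Figure D2:**
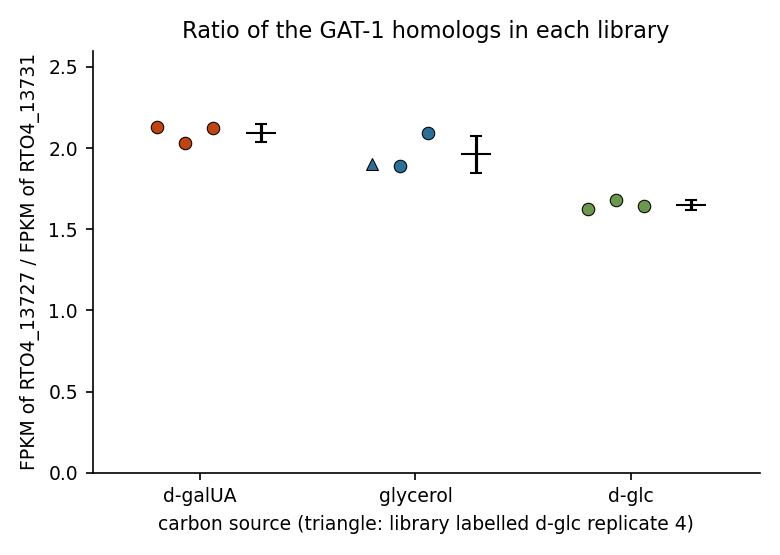
FPKM of RTO4_13727 divided by that of RTO4_13731 (vertical axis, from 0) in each library, by carbon source, with the mean ± SD of 3 libraries; the triangle is the library labelled d-glc replicate 4. The d-glc libraries, at 1.62 to 1.68, lie below the d-galUA and glycerol libraries, at 1.89 to 2.13.

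The homologs lie close together in the genome. On scaffold 4 of the version 4 genome, RTO4_13727 takes up positions 536376 to 539032 (minus strand) and RTO4_13731 positions 544330 to 546394 (plus strand). The interval is 5297 bp long. They point away from each other, and 3 gene models, RTO4_13728, RTO4_13729 and RTO4_13730, lie in it. The files do not give introns or untranslated regions, so these are the bounds of the gene models. No function is annotated for the models in the interval in the sources used here.

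Of the models between the homologs, 1 was also highest on glycerol, by a smaller fold, and the others had their highest mean on d-glc. RTO4_13729 (540890 to 543054, minus strand) averaged 23.6 ± 0.725 FPKM on d-galUA, 22.1 ± 1.71 on glycerol and 45.4 ± 5.87 on d-glc (SD, n = 3 each). It was thus highest on d-glc, where the homologs were below their glycerol level, and its d-galUA and glycerol libraries overlapped. Its log2 fold change for d-galUA against d-glc was -0.91 (SE 0.11, limma adjusted p = 9.26e-05). With the groups as labelled this was -0.69 and not called (limma adjusted p = 0.0686). RTO4_13730 (543090 to 544217, plus strand), which ends 112 bp before RTO4_13731, averaged 3.10 ± 0.404 on d-galUA, 4.60 ± 0.354 on glycerol and 2.45 ± 0.635 on d-glc (SD, n = 3 each). It was highest on glycerol with no overlap, by 1.48-fold over d-galUA, against 4.75-fold for RTO4_13731 next to it. Its log2 fold change was -0.45 for d-galUA against glycerol (limma adjusted p = 0.0302) and 0.71 for glycerol against d-glc (limma adjusted p = 0.00254). The first of these calls was lost with Ballgown's test, the replicate block and the groups as labelled, and in 4 of the 9 leave-one-out fits, with log2 fold changes of -0.45, -0.45 and -0.49 in those 3 settings. The second was lost with Ballgown's test (0.71) and the groups as labelled (0.59), and was kept with the block and in all 9 leave-one-out fits.

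RTO4_13728 (538955 to 540870, plus strand) was near silent, with an FPKM of at most 1.77 in any library. On d-galUA it held at most 3.20 to 13.8 reads per library, so no fold change is given. Its first 78 bp overlap the start of RTO4_13727 on the opposite strand, and whether the counting used strand is not given in the sources used here. Its FPKM was 0.821 to 0.955 in the glycerol libraries, where RTO4_13727 had 441 to 539. In the d-galUA libraries it was 0.0498 to 0.204. At the other end, RTO4_13726 overlaps the last 205 bp of RTO4_13727 on the same strand. RTO4_13726 averaged 13.6 ± 0.499 FPKM on d-galUA, 25.1 ± 3.66 on glycerol and 14.9 ± 4.83 on d-glc (SD, n = 3 each), so it too was highest on glycerol, at a small fraction of the level of RTO4_13727. Its log2 fold change for d-galUA against glycerol was -0.84 (limma adjusted p = 0.00467), and with the groups as labelled -0.89 (limma adjusted p = 0.0674). What reads from the shared bases add to it was not tested.

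Around the homologs, 9 models were followed: the 3 between them and the nearest 3 on either side. Of these 9, limma called 4 as higher and 3 as lower with d-galUA than with glycerol, in a comparison that called 25.2% and 24.1% of all genes in these directions. The 3 called lower were RTO4_13726, RTO4_13730 and RTO4_13728, the last on the few d-galUA reads given above. The median log2 fold change of all 9 models was 0.09, against 0.03 over all genes. RTO4_13725, 172 bp beyond RTO4_13726, was highest on d-galUA, unlike the homologs, averaging 199 ± 3.88 on d-galUA, 65.5 ± 1.97 on glycerol and 136 ± 47.9 on d-glc (SD, n = 3 each). Its d-glc libraries ran from 83.5 to 177. Its call on d-galUA against d-glc (limma adjusted p = 0.0374) was lost with the replicate block, the groups as labelled and several leave-one-out fits. RTO4_13732, 290 bp beyond RTO4_13731, had 206 ± 1.17 on d-galUA, 152 ± 10.8 on glycerol and 268 ± 57.1 on d-glc. It was thus lowest on glycerol.

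**Figure D3:**
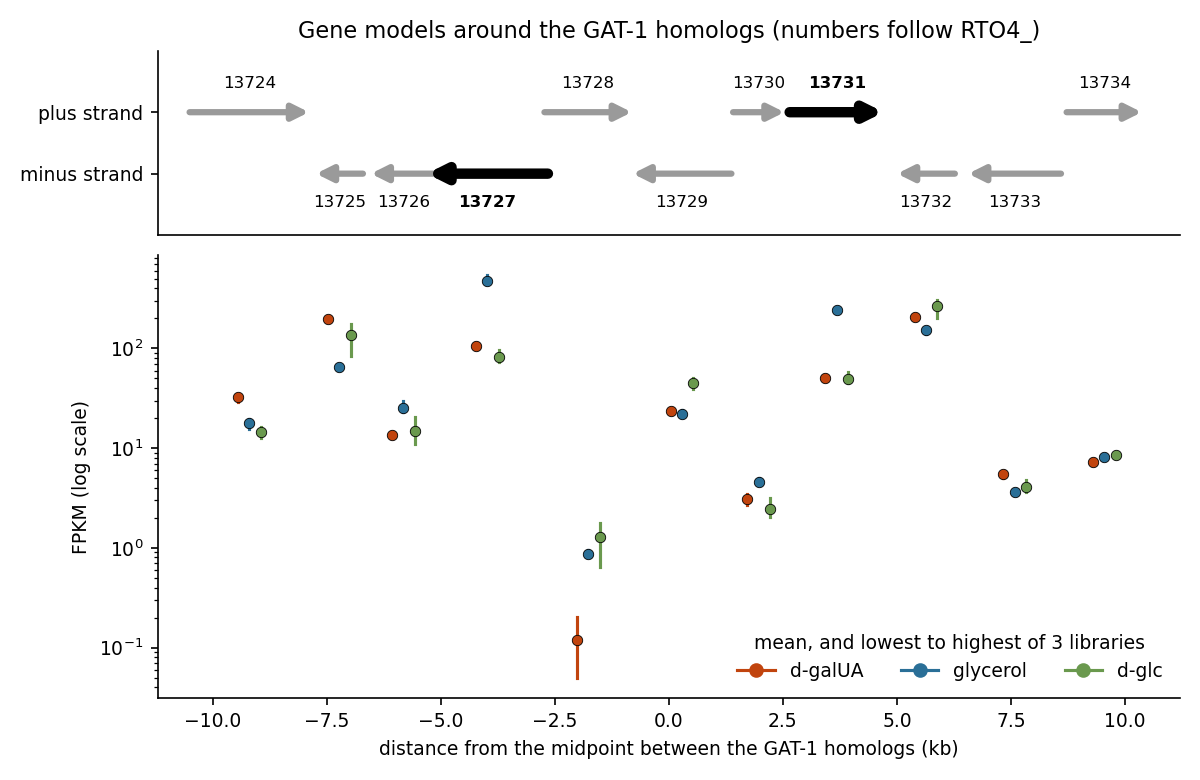
Upper panel: gene models on either strand around the GAT-1 homologs (black), drawn to scale as arrows in the direction of transcription, by distance in kb from the midpoint between the homologs. Lower panel: mean FPKM of each model on a log axis, with lines from the lowest to the highest of 3 libraries; among these models only RTO4_13727 and RTO4_13731 have a mean at least 4-fold higher on glycerol than on d-galUA at a level above 1 FPKM.

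Most of the other uptake genes compared were higher on d-galUA than on glycerol, unlike the homologs. The comparison list holds 9 genes that the supplementary summary names, by a note or a Saccharomyces cerevisiae ortholog, as transporters or sensors of carbon compounds. That summary notes some of them for their induction in these libraries and only part of it was used, so the list is no independent sample of the transporters of this yeast. Of the 9, limma called 7 as higher and 1 as lower with d-galUA than with glycerol, where 25.2% and 24.1% of all genes were called in these directions. The median log2 fold change of the list was 3.58, against 0.03 over all genes. The 5 transporters noted beside the homologs, RTO4_16194, RTO4_9841, RTO4_10452, RTO4_9848 and RTO4_9846, were all among the 7, with log2 fold changes of 3.48 or more. RTO4_9848 was listed at 0 in every glycerol library.

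The gene called lower on d-galUA, as the homologs were, was RTO4_11990, an ortholog of the yeast glucose sensors RGT2 and SNF3. Its mean FPKM was 1753 ± 90.1 on d-galUA, 12809 ± 1854 on glycerol and 611 ± 43.5 on d-glc (SD, n = 3 each). With d-galUA its log2 fold change was -2.86 against glycerol (SE 0.14, limma adjusted p = 8.72e-08) and 1.52 against d-glc (SE 0.14, limma adjusted p = 9.08e-06). With the groups as labelled the value against glycerol was -2.96 and that against d-glc 0.48, and neither was called (limma adjusted p = 0.111 and 0.758). RTO4_10704, the ortholog of the yeast glycerol-proton symporter STL1, had its lowest mean on glycerol. Its mean FPKM was 2361 ± 39.7 on d-galUA, 197 ± 15.2 on glycerol and 273 ± 27.6 on d-glc. RTO4_10184, the ortholog of the yeast lactate permease JEN1, had 200 ± 17.9 on d-galUA, 252 ± 19.2 on glycerol and 3.86 ± 1.06 on d-glc. Its mean was far below that on glycerol only on d-glc, while the homologs were well below their glycerol level on d-galUA as well. RTO4_13042, the ortholog of the yeast inositol transporters ITR1 and ITR2, had a log2 fold change of 0.44 on d-galUA against glycerol (SE 0.10).

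**Figure D4:**
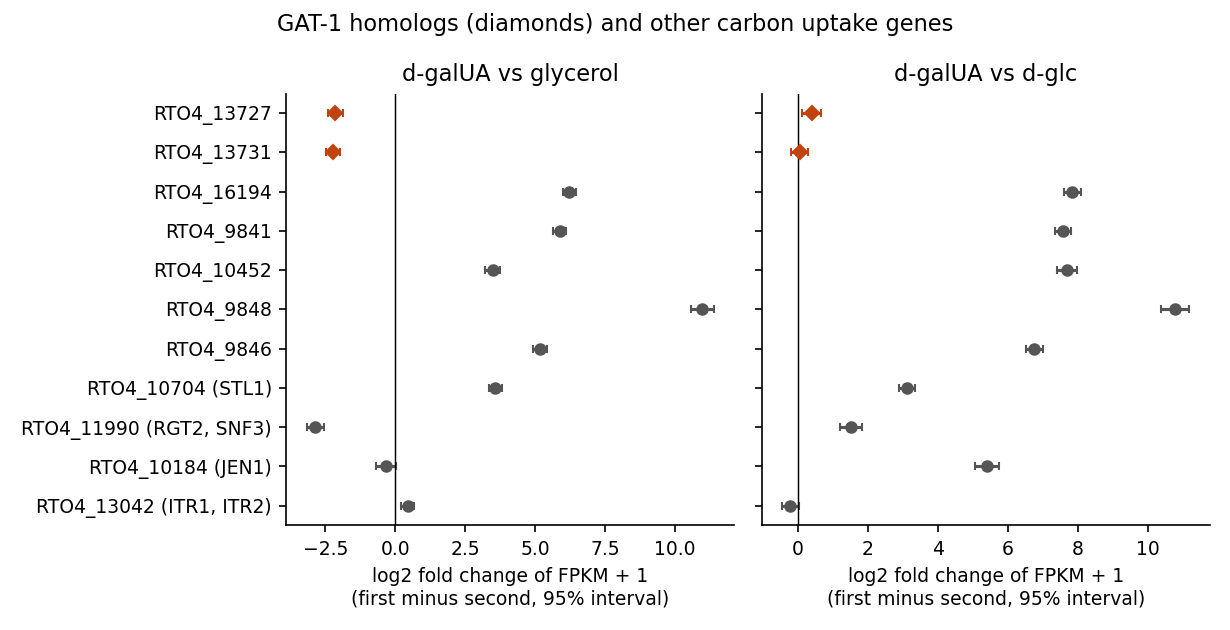
Log2 fold change on the scale of FPKM + 1 (horizontal axes, d-galUA minus glycerol on the left and d-galUA minus d-glc on the right, with 95% intervals from limma) of the GAT-1 homologs (diamonds) and the 9 other uptake genes (circles). The homologs, at -2.14 and -2.23, lie left of 0 against glycerol together with RTO4_11990, at -2.86, and RTO4_10184, whose interval crosses 0; the d-galUA comparisons share the d-galUA libraries, and RTO4_9848 was listed at 0 on glycerol.

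The genes of d-galUA breakdown and of glycerol use followed another order. The homologs of the 4 pathway enzymes, RTO4_11882, RTO4_12062, RTO4_12061 and RTO4_9774, were all called higher on d-galUA than on glycerol, as were 25.2% of all genes. Their median log2 fold change was 6.24, against 0.03 over all genes. The study lists these enzymes by homology and as induced on d-galUA in these libraries, so the median is given as a description. GUT1 (RTO4_11022), glycerol kinase, and GUT2 (RTO4_11039), glycerol-3-phosphate dehydrogenase, were also higher on d-galUA than on glycerol, by log2 fold changes of 1.29 and 3.69. Between d-galUA and glycerol the GAT-1 homologs thus moved in the direction opposite to all 6 of these genes. Like the homologs, RTO4_12061, RTO4_12062, RTO4_9774 and GUT1 were called higher by limma for glycerol against d-glc, as were 26.7% of all genes. Their log2 fold changes, in that order, were 2.43, 1.10, 0.41 and 0.84. RTO4_11882 and GUT2 were called lower there, at -0.87 and -0.66. With the groups as labelled, limma called 1 gene in all for glycerol against d-glc. For d-galUA against d-glc limma called all 6 higher, as were 24.9% of all genes. It also called RTO4_13727, a call lost under several alternatives given above, but not RTO4_13731.

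The genes whose levels followed each homolog most closely were sought over the 9 libraries by the Pearson correlation of log2(FPKM + 1), among 7234 other genes with a mean FPKM of at least 5 on at least 1 carbon source. The libraries fall into 3 carbon sources, so the measure mainly finds genes set apart by glycerol. For RTO4_13727 the nearest 5 were RTO4_12683, RTO4_10053, RTO4_16472, RTO4_10563 and RTO4_11113, with r of 0.993 to 0.997. For RTO4_13731 they were RTO4_9271, RTO4_12110, RTO4_11115, RTO4_9819 and RTO4_16321, with r of 0.996 to 0.998. The 2 sets shared no gene, but the order rests on small differences in r. At r of at least 0.99 there were 21 genes for RTO4_13727 and 30 for RTO4_13731. RTO4_13731 ranked 14 among the genes most like RTO4_13727, and RTO4_13727 ranked 21 among those most like RTO4_13731, with r of 0.992 between them.

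The d-galUA means of these 10 genes were 5.75-fold to 45.4-fold below their glycerol means. Since 8 of the 10 reached the minimum level on glycerol alone, a large fold was built into their choice and is given as a description. RTO4_9819, on scaffold 11, was the most abundant of them, at 65.0 ± 1.35 on d-galUA, 1519 ± 169 on glycerol and 58.0 ± 6.01 on d-glc (SD, n = 3 each). RTO4_11113 and RTO4_11115 are both on scaffold 15. RTO4_11113 had 5.93 ± 0.712 on d-galUA, 202 ± 23.7 on glycerol and 3.96 ± 0.191 on d-glc. Only RTO4_9819 had a level on d-galUA and d-glc like that of the homologs. The other 9 had a mean FPKM of at most 5.93 away from glycerol, where the homologs were at 49.3 or more. None of the 10 lies on scaffold 4.

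**Figure D5:**
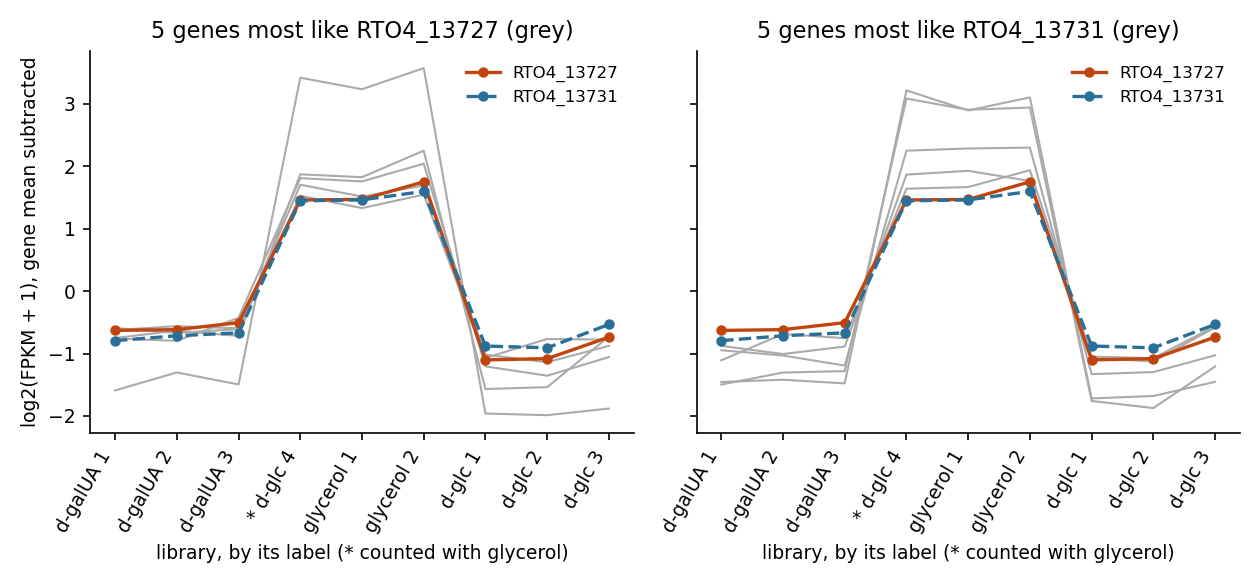
Log2(FPKM + 1) minus the mean of the gene over the 9 libraries (vertical axis) for RTO4_13727 and RTO4_13731 (colored lines) and the 5 genes most like each of them (grey), by library. All lines are high in the 3 glycerol libraries, of which the one with an asterisk is labelled d-glc replicate 4.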

How the data were processed

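The authors mapped 50-bp single-end reads with HISAT2 2.1.0 and estimated abundances with StringTie 1.3.3b against the version 4 gene models, 1 library per file. FPKM as deposited is per gene length and mapped reads. TPM, also deposited, has an equal total in all libraries and was an alternative. Deposited coverage (mean read depth over a gene) gave, with FPKM, the mapped depth. Strand and multimapping settings are not given in the sources used here. The labels name another RNA kit than the methods do.

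Log2(FPKM + 1) was fitted with limma 3.58.1 in R 4.3.3, all 9 libraries in 1 fit with a trend of variance on mean level, and p was adjusted by Benjamini-Hochberg over the 8479 genes above 0 in at least 1 library. This understates fold changes of low genes. A gene was called at an adjusted p under 0.05. Python 3.11.15, numpy 2.4.6, pandas 2.3.3, scipy 1.17.1 and matplotlib 3.10.9 were used for the rest. The fits were tested on simulated data. Alternatives covered pseudocounts, gene filters, TPM, scalings, Ballgown's test, groupings, a replicate block and leaving out each library. Genes named were the homologs, the models between them and the 3 nearest on each side, the 5 most correlated with each homolog, and lists of uptake, d-galUA and glycerol genes. The homologs and lists were chosen with earlier results of these data known. The reference table used here covers another strain, NP11, whose locus tags match none of these gene names, so no sequences are shown.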

Additional observations from a re-analysis of the deposited data

Results flagged for a closer look

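Among the 4 libraries labelled d-glc, replicate 4 stood far above the others for both GAT-1 homologs. The gap to the next library, divided by the range of the 4, was 0.941 for RTO4_13727, with an FPKM of 441 against 95.3 in the next library. It was 0.928 for RTO4_13731, with 232 against 58.1. Both pass Dixon's 95% critical value for 4 samples, which chance alone passes in about 1 in 20 groups. This library is counted with glycerol above, where both homologs were highest, so the gap is no separate evidence. The same library was the highest for all 10 of the genes most like the homologs, as follows from how they were chosen: this share was 0.920 for RTO4_10053, 0.953 for RTO4_10563, 0.998 for RTO4_11113, 0.934 for RTO4_11115, 0.923 for RTO4_12110, 0.971 for RTO4_12683, 0.979 for RTO4_16321, 0.968 for RTO4_16472, 0.981 for RTO4_9271 and 0.993 for RTO4_9819. None of the 9 models beside the homologs passed it, and neither did the log2 ratio between the homologs.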

How the results depend on the processing

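The direction against glycerol held under all alternatives for both homologs: the log2 fold change of d-galUA against glycerol was -2.27 to -2.05 for RTO4_13727 and -2.33 to -2.14 for RTO4_13731. Grouping the libraries as labelled changed most. It gave -2.19 for RTO4_13727 on d-galUA against glycerol (adjusted p = 0.0583), and 1.97 and 1.75 for RTO4_13727 and RTO4_13731 on glycerol against d-glc (adjusted p = 0.172 each). It turned the differences of d-galUA from d-glc to -0.22 and -0.51, which were not called. It cut the genes called by limma to 1564 for d-galUA against glycerol, 1893 for d-galUA against d-glc and 1 for glycerol against d-glc, against 4180, 4298 and 4530 in the chosen grouping (3268 to 5048, 3467 to 4509 and 3022 to 4725 under the other alternatives). Of the 9 models beside the homologs it called 2, 2 and 0 in these comparisons (for the last, 4 at an unadjusted p under 0.05; Ballgown's test was not run on this grouping), against 7, 5 and 5 in the chosen grouping (4 to 7, 3 to 6 and 3 to 6 under the other alternatives).

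Leaving out each library in turn, the log2 fold change of d-galUA against d-glc was 0.33 to 0.51 for RTO4_13727 and -0.019 to 0.17 for RTO4_13731, -0.27 to 0.14 for RTO4_13726, and 3 to 6 of the 9 models were called. Ballgown's test kept 0.39 for RTO4_13727 but not its call (adjusted p = 0.114), and called 3 of the 9 models for glycerol against d-glc. With only the libraries compared, 3 were called for d-galUA against d-glc. On TPM the value of RTO4_13734 for glycerol against d-glc was 0.030, against -0.050 on FPKM. The alternatives for neighboring models and uptake genes, and fits of 2 carbon sources without the library labelled d-glc replicate 4, were added after seeing the data.

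No pairing by the label's replicate number was seen, though so few pairs cannot exclude it. The correlation of deviations was -0.137 to 0.196 over 7 pairs with the same number, above 0.1 in 2. Over pairs with different numbers it was -0.237 to 0.317. With the number as a replicate block, in which the library labelled d-glc replicate 4 has a number of its own, the log2 fold changes were -2.27 and -2.33 against glycerol, and 4 and 3 of the 9 models were called on d-galUA against glycerol and d-glc. No call of the homologs changed. Depth limits RTO4_13728, with at most 13.8 reads in any d-galUA library.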

Other observations

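The spread between replicate libraries of the homologs was near that of genes of like level. On d-galUA the coefficient of variation was 4.83% for RTO4_13727 and 4.44% for RTO4_13731, against medians of 4.40% and 4.59% over genes within a factor of 2 of their level. On glycerol it was 11.8% for RTO4_13727, against a median of 7.74%, and 5.87% for RTO4_13731, against 7.53%. On d-glc it was 14.9% and 15.3%, against medians of 14.3% and 14.4%.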
